A study of Mus musculus with 9 samples.

Results

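Proneural basic helix-loop-helix (bHLH) and DLX homeobox genes were followed in cultured neural stem cells (NSCs) of the adult mouse subependymal zone (SEZ), the niche along the lateral ventricles, before and after differentiation was started. The 9 members were chosen by symbol: Neurog2 and Neurod1, which encode proneural and neuronal bHLH factors; Tcf3, Tcf4 and Tcf12, which encode the E proteins; Hes6 and Insm1, which encode a HES-family factor and a zinc-finger repressor of neurogenic progenitors; and the homeobox genes Dlx1 and Dlx2. They are 9 of the 48526 genes in the count table, and 9 of 9 were among the 18858 genes that passed the filter on low counts. Neurog2 passed it only through 3 libraries with at least 10 counts, 1 at 1 h and 2 at 6 h, and none at 0 h.

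The cultures came from C57BL/6 mice (C57BL/6J in the methods) of 2 to 4 months of age, and carried no transgene or deletion named in the labels. NSCs were expanded in culture, and differentiation was induced on an adhesive substrate by withdrawing EGF while FGF was kept. RNA was sequenced as stranded mRNA libraries at 3 times (0 h, 1 h, 6 h after the withdrawal), and 3 replicates of each made 9 libraries. Replicate numbers 1, 2 and 3 go with the letters B, C and D of the sample titles, and what libraries with the same number share is not given in the sources used here.

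Proneural factors bind DNA at E-box motifs as dimers with an E protein and switch on Notch ligands and neuronal genes in neural progenitors. ID proteins take E proteins away from these dimers, HES and HEY repressors, many of them induced by Notch, hold proneural genes down, and HES6 opposes HES1 and favours neuronal differentiation. In the SEZ, DLX1 and DLX2 act in the progenitors and neuroblasts that give olfactory bulb interneurons.

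The E-box is the motif that proneural factors bind with E proteins, so the start regions of the members were searched for it. RefSeq promoter sequences of GRCm38.p6, each covering 250 bases before to 50 bases after a transcription start, were matched to 7 of the 9 members with 10 starts. No entry was matched for Insm1 or Tcf4. The E-box CANNTG, whose letters read the same on both strands, was found in 8 of the 10 windows and in 72.3% of the 32851 promoter windows of the table, so it is common in any window of this length. The 3 E-boxes of the upstream Hes6 start lie in a stretch from 230 to 149 bases before it, on the minus strand at chr1:91414187-91414268, and a window of 26 bases around the single E-box of the downstream Hes6 start is at chr1:91413357-91413382. They are shown because Hes6 had the smallest adjusted p-value of the members at 6 h, and capitals mark each E-box, read 5′ to 3′ of the gene.
Hes6, upstream start: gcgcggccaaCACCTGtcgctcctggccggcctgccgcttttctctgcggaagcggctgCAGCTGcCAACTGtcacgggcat
Hes6, downstream start: tccgccccgcCAGCTGccagagaccc
The form CAGCTG, which overlaps CANNTG, occurred at both Hes6 starts and at 1 of 3 Tcf12 starts, and in 16.3% of all promoter windows. Dlx2 carried 3 E-boxes, of which 2 were of the form CACGTG, found in 7.15% of all windows. Both are on the minus strand, at chr2:71546881-71546906 and chr2:71546781-71546806, and are shown for contrast with Hes6.
Dlx2, distal E-box: ccttgcccgcCACGTGacacgcgggt
Dlx2, proximal E-box: tgcccgcggtCACGTGataagtgtta
The windows of Neurog2 and Dlx1 held no CANNTG, and TAATTA, a letter string that homeodomain proteins bind, was in 0 of the 10 windows and in 5.29% of all windows. A match describes letters and not a bound site, and no match says only that these letters are not in this window.

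Libraries held 65871454 to 105592597 counts. Expression is given as CPM, the usual count rate relative to library size, after TMM scaling with factors between 0.97 and 1.02. The 6 NSC markers (Nes, Sox2, Egfr, Vim, Slc1a3 and Fabp7) were all tested, and their summed level was between 6556 and 9497 CPM in the 9 libraries. Their single changes, which did not go one way, are given below with the other cell markers. Of the microglial markers, Aif1, Cx3cr1 and C1qa had a mean of at most 3 counts, as had the endothelial markers Cdh5 and Cldn5. These are bulk samples, in which fewer cells of a type and less RNA per cell cannot be told apart. Nothing in the labels says that the replicates came from separate animals, so the p-values measure the spread between these samples.

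Levels between genes were compared per kilobase of the union of their annotated exons. At 0 h the highest was Hes6 with 55.5 ± 17.0 CPM per kb (mean ± SD, n = 3), then Tcf3 with 40.0 ± 6.17, Tcf12 with 38.9 ± 7.40 and Tcf4 with 19.2 ± 4.38 CPM per kb. The ranges of Hes6, Tcf3 and Tcf12 overlapped each with the next, and the range of Tcf4 lay below them. Insm1 followed far below with 1.18 ± 0.137, Dlx1 with 0.686 ± 0.512, Dlx2 with 0.437 ± 0.326 and Neurod1 with 0.141 ± 0.0936 CPM per kb, each overlapping the next. Neurog2 was the lowest, with 0.0144 ± 0.00692 CPM per kb and no overlap with Neurod1. At 6 h the range of Hes6 no longer overlapped the others, at 89.9 ± 18.6 CPM per kb against 37.8 ± 3.56 for Tcf3. The order of the 4 highest depends on the length used: Tcf4 and Tcf12 have exon unions of 27382 and 15529 bases, and per kb of the longest coding transcript Tcf12 was first at 0 h, with 96.0 CPM per kb. Hes6 was then first at 6 h, with 122 CPM per kb against 89.6 for Tcf12.

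Over the 3 comparisons, the changes of the 9 genes did not go one way. With the replicate number as a block, 1 of 9 passed at 1 h, beside 3.51% of all tested genes. At 6 h against 0 h and at 6 h against 1 h it was 3 of 9 each, beside 34.9% and 35.6%. At 1 h Insm1 alone fell, at 6 h Hes6 rose and Dlx1 fell, and between 1 h and 6 h Insm1 and Hes6 rose and Tcf12 fell. Neurog2 also passed the threshold at 6 h, but it entered the test only through 1 h and 6 h libraries, and its values are given as a description. The calls come from edgeR with the replicate number entered as a block, at a Benjamini-Hochberg adjusted p under 0.05 over all tested genes. Without the block edgeR called 0 members in each comparison, with unadjusted p under 0.05 for 1 member at 1 h, for 1 at 6 h against 0 h and for 2 at 6 h against 1 h. Such p-values had 3.9%, 17.9% and 17.7% of all tested genes. DESeq2 without the block called Insm1 at 1 h and at 6 h against 1 h, and 0 members at 6 h against 0 h, beside 0.525%, 8.95% and 9.26% of all genes. With the block DESeq2 called 1, 2 and 3 members at 1 h, at 6 h against 0 h and at 6 h against 1 h, beside 4.97%, 32.4% and 33.2%.

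At 1 h against 0 h, the share of all tested genes called was 0.0424% without the block and 3.51% with it, and 1 of 9 members was called with the block. At 6 h, again against 0 h, the shares were 2.42% and 34.9%, and 3 of 9 members passed with the block, or 2 of 8 without Neurog2. For 6 h against 1 h they were 2.14% and 35.6%, again with 3 of 9 members. Within replicate numbers, 4 of 9 members at 1 h, 6 of 9 at 6 h and 6 of 9 at 6 h against 1 h moved in 1 direction in 3 of 3, beside 43.2%, 63.2% and 57.6% of all tested genes. The median log2 fold change of the 9 members with the block was 0.046 at 1 h, -0.097 at 6 h and -0.11 at 6 h against 1 h, beside medians of 0.00066, -0.000078 and -0.00093 over all tested genes. The comparisons with 0 h share the 0 h libraries, and those with 1 h share the 1 h libraries, so their values are given side by side.

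**Figure D1:**
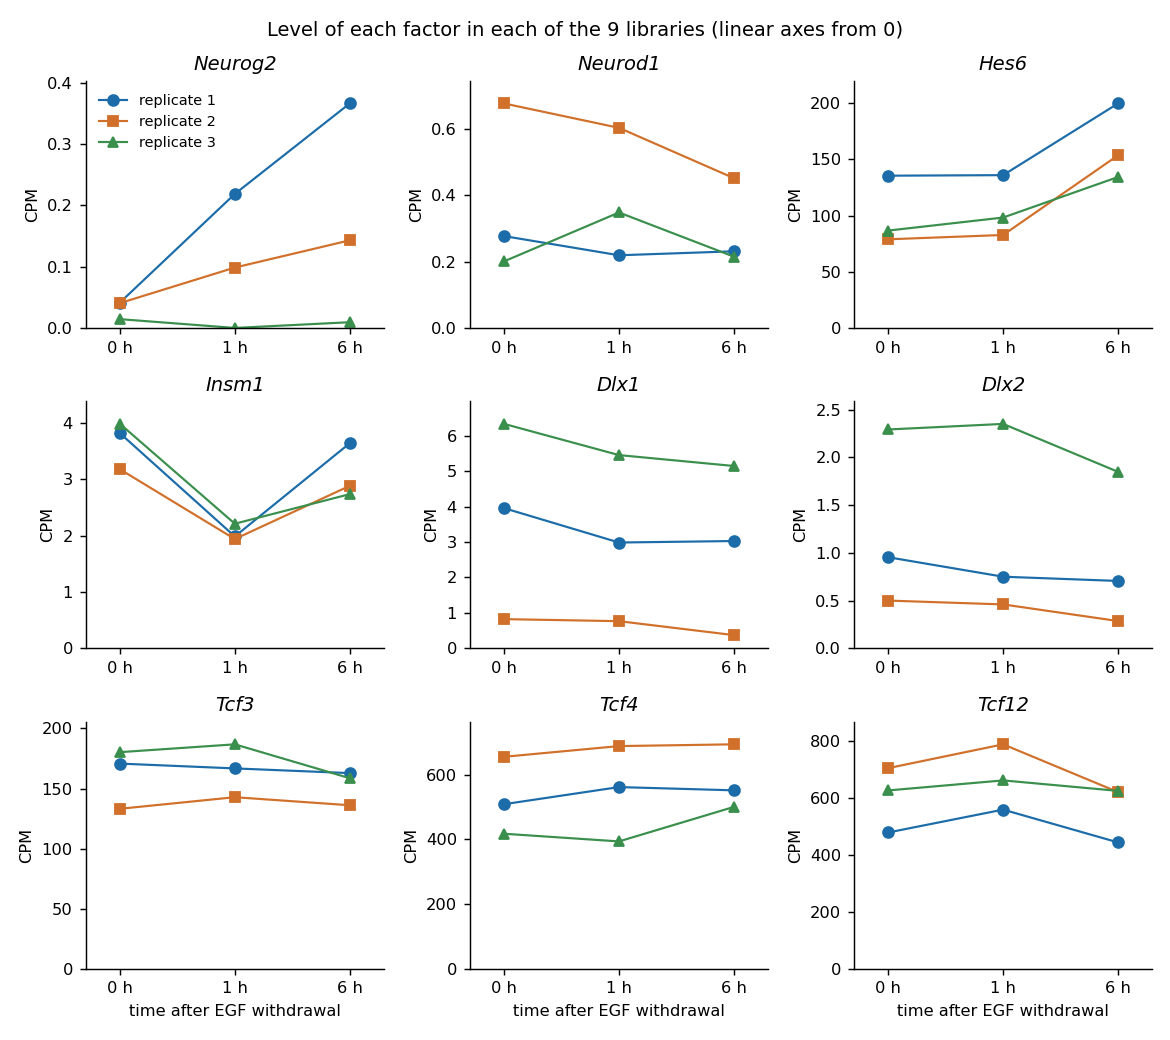
CPM (linear axes from 0) of each of the 9 genes in each of the 9 libraries against time after EGF withdrawal, with 1 line per replicate number. Insm1 dips in 3 of 3 lines at 1 h, Hes6 is higher at 6 h in 3 of 3, and the Dlx1 and Dlx2 lines stay apart by replicate number.

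**Figure D2:**
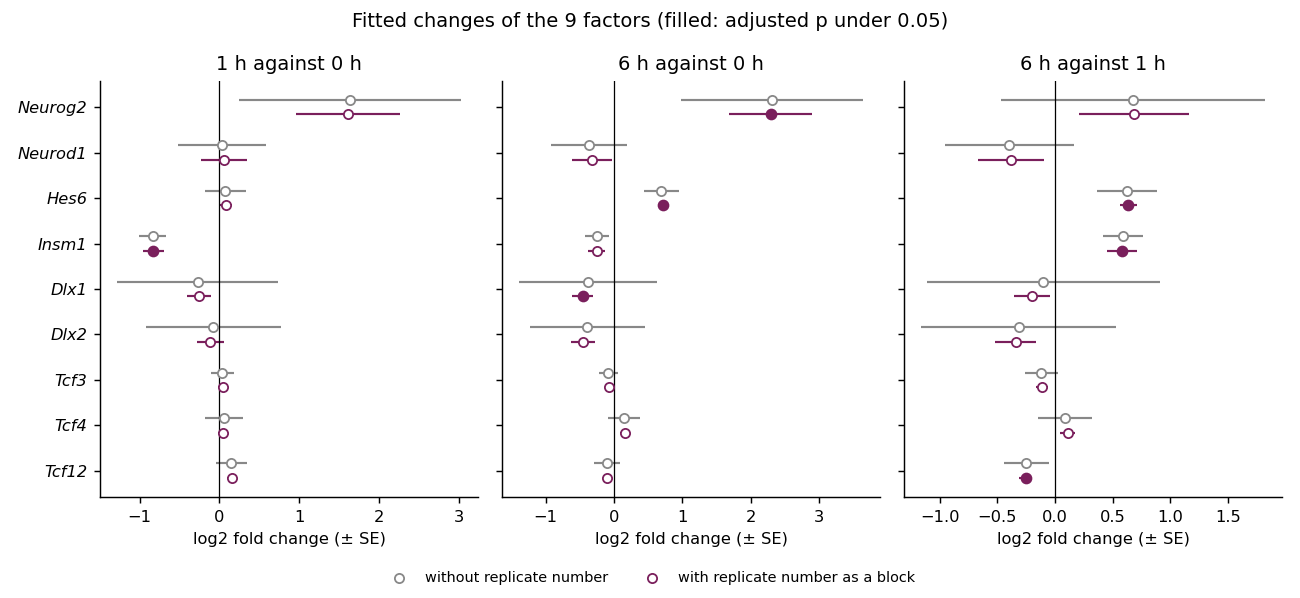
Fitted log2 fold changes with their standard errors (bars) for each gene in the 3 comparisons, from edgeR without (grey) and with (purple) a block for the replicate number. Filled points have an adjusted p under 0.05, and all 7 of them belong to the fit with the block; the one for Neurog2 is a gene that entered only through later libraries.

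Neurog2, which encodes a proneural factor that commits progenitors to a neuronal fate, was close to the limit of detection. It had 3, 3 and 1 counts in replicates 1, 2 and 3 at 0 h, 14, 9 and 0 counts at 1 h, and 27, 13 and 1 counts at 6 h. Replicates 1 and 2 were higher at 1 h and 6 h than at 0 h, replicate 3 was at 0 or 1 count throughout, and the groups overlapped. A count of 0 allows up to 3 counts, or 0.0412 CPM in the 1 h library of replicate 3. Over the 3 libraries of each time point, the ratio of 41 counts at 6 h to 7 at 0 h, scaled to library size, was 4.73 (95% exact interval 2.10 to 12.5). Of the 41 counts, 27 came from replicate 1. Within replicate 1 the ratio was 9.01 (2.77 to 46.4), and within replicate 2 it was 3.53 (0.969 to 19.3). Within replicate 3, with 1 count at each time, it was 0.667 (0.0085 to 52.3), and these intervals cover counting error only. For 23 counts at 1 h against 7 at 0 h the ratio was 3.10 (1.29 to 8.55).

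The fitted log2 fold change of Neurog2 at 6 h with the block was 2.29 (SE 0.60, edgeR, adjusted p = 0.0098), a value that depends on the prior count. Since no 0 h library reached the minimum count by which genes were admitted, this p-value is not read as a call. Without the block the edgeR adjusted p was 0.431, and in DESeq2 with the block it was 0.0613. The value missed the threshold without replicate 1 of 0 h or of 6 h, where the edgeR adjusted p with the block reached 0.239. At 1 h the fitted value was 1.61 (SE 0.66, edgeR with the block, adjusted p = 0.212).

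Neurod1, which encodes a bHLH factor of differentiating neurons, was detected at a low level in every library. At 0 h it had 20, 50 and 14 counts, at 1 h 14, 55 and 25, and at 6 h 17, 41 and 23, in replicates 1, 2 and 3. Replicate 2 was the highest at each time point and the 3 groups overlapped. The log2 fold change with the block was 0.057 (SE 0.29) at 1 h and -0.32 (SE 0.29) at 6 h, and neither passed the test (edgeR, adjusted p = 0.944 and 0.426). Neurod1 shares 201 exonic bases on the same strand with Cerkl, which had between 3 and 33 counts per library, so how reads in that stretch were assigned is uncertain.

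Among other proneural and neurogenic bHLH genes, 13 of a list of 16 had between 0 and 16 counts in any library. Olig2, a bHLH gene of oligodendrocyte-lineage cells and progenitors, had 701, 545 and 653 CPM at 0 h, 620, 542 and 576 CPM at 1 h, and 849, 708 and 761 CPM at 6 h. It was higher at 6 h than at 0 h in 3 of 3 replicates, and the 6 h range lay above both others. With the block Olig2 rose by 0.29 at 6 h (edgeR, adjusted p = 0.00074, 0.233 without the block). Olig1, its neighbour in the family, was at 0.14 and did not pass (edgeR with the block, adjusted p = 0.0991).

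The E-protein genes, whose products pair with proneural factors, were expressed strongly and moved little. Tcf12, which encodes HEB, had 480, 706 and 628 CPM at 0 h, 560, 790 and 663 CPM at 1 h, and 445, 622 and 626 CPM at 6 h. In 3 of 3 replicates the value was highest at 1 h and lowest at 6 h, while the groups overlapped, since replicate 1 was the lowest throughout. From 1 h to 6 h, with the block, Tcf12 fell by 0.25 on the log2 scale (SE 0.06, 0.839-fold, edgeR, adjusted p = 0.0040), and the adjusted p was 0.577 without it. This call held in 9 of 9 fits that left out 1 library each. At 1 h against 0 h the value was 0.16 (SE 0.06, edgeR with the block, adjusted p = 0.165), and it passed only without replicate 3 of 1 h (adjusted p = 0.0257). Between 0 h and 6 h it was -0.097, which passed only without replicate 3 of 6 h (edgeR with the block, adjusted p = 0.209 with all libraries and 0.0492 without that one).

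Tcf4, which encodes the E protein E2-2, had 509, 655 and 417 CPM at 0 h, 562, 688 and 394 CPM at 1 h, and 551, 694 and 500 CPM at 6 h. Replicate 2 was the highest and replicate 3 the lowest at each time point, and the 3 ranges overlapped. At 6 h it was above 0 h in 3 of 3 replicates, with a log2 fold change of 0.16 that did not pass (SE 0.06, edgeR with the block, adjusted p = 0.0815). Without replicate 3 of 1 h, the adjusted p of that edgeR fit was 0.0087.

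Tcf3, which encodes the E12 and E47 proteins, had 171, 133 and 180 CPM at 0 h, 167, 143 and 187 CPM at 1 h, and 163, 136 and 159 CPM at 6 h. The groups overlapped, and replicate 2 was the lowest at each time point. The log2 fold changes with the block were 0.039 at 1 h and -0.074 at 6 h (SE 0.05 each, edgeR, adjusted p = 0.749 and 0.317). With all 9 libraries, Tcf3, Tcf4, Neurod1 and Dlx2 passed the threshold in none of the 3 comparisons, with or without the block, in edgeR or DESeq2.

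Hes6, whose product opposes HES1, had the smallest adjusted p-value of the 9 genes at 6 h. It had 135, 78.9 and 86.7 CPM at 0 h in replicates 1, 2 and 3, and 136, 82.7 and 98.2 CPM at 1 h. At 6 h it had 200, 154 and 134 CPM. Each replicate was higher at 6 h than at 0 h, by factors of 1.47, 1.95 and 1.55, and the groups overlapped only at the 6 h library of replicate 3, which was at about the level of the 0 h library of replicate 1. With the block Hes6 rose by 0.72 on the log2 scale at 6 h (SE 0.08, 1.65-fold, edgeR, adjusted p = 1.5e-05), and by 0.64 from 1 h to 6 h (adjusted p = 4.2e-05). Without the block the edgeR adjusted p-values were 0.202 and 0.258. At 1 h against 0 h the value was 0.085 (SE 0.08, edgeR with the block, adjusted p = 0.599), and the calls at 6 h held in 9 of 9 fits with the block that left out 1 library each.

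Insm1, a zinc-finger repressor gene of intermediate progenitors and neuroendocrine cells, was the member that changed at 1 h. At 0 h it had 3.82, 3.18 and 3.98 CPM, from 235 to 278 counts. At 1 h it had 1.98, 1.94 and 2.21 CPM, and at 6 h 3.64, 2.88 and 2.73 CPM. The 1 h libraries lay below all libraries of 0 h and 6 h, so that Insm1 was the only 1 of 9 members whose ranges did not overlap in these comparisons. Such ranges occurred in 8.24% of all tested genes at 1 h against 0 h and in 22.2% at 6 h against 1 h, while at 6 h against 0 h it was 0 of 9 members and 25% of all genes.

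With the block, Insm1 fell by 0.83 (log2) at 1 h (SE 0.13, 0.562-fold, edgeR, adjusted p = 0.0031). Without the block the fall was 0.84, with an edgeR adjusted p of 0.416, and DESeq2 without the block gave 0.0011. From 1 h to 6 h it rose by 0.58 (SE 0.13, 1.49-fold, edgeR with the block, adjusted p = 0.0038, and 0.120 without the block). Both calls held in 9 of 9 fits with the block that left out 1 library each, and the 6 h level was -0.25 relative to 0 h (SE 0.12, edgeR with the block, adjusted p = 0.135).

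The paired homeobox genes Dlx1 and Dlx2 lie end to end on chromosome 2, with 9426 bases between their 3′ ends and opposite strands. Dlx1 had 3.95, 0.824 and 6.33 CPM at 0 h, 2.98, 0.767 and 5.45 CPM at 1 h, and 3.03, 0.374 and 5.14 CPM at 6 h. Dlx2 had 0.954, 0.500 and 2.29 CPM at 0 h, 0.750, 0.460 and 2.35 CPM at 1 h, and 0.706, 0.286 and 1.85 CPM at 6 h. For both genes replicate 3 was the highest and replicate 2 the lowest at each time point. The distance between these 2 replicates was larger than that between times within any replicate. The mean over the 3 time points differed 8.61-fold between the highest and the lowest replicate for Dlx1, and 5.21-fold for Dlx2.

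Within replicates, Dlx1 and Dlx2 were lower at 6 h than at 0 h in 3 of 3. With the block, Dlx1 fell by 0.46 (log2) (SE 0.15, 0.728-fold, edgeR, adjusted p = 0.0313). Dlx2 had a value of -0.45 that missed the threshold (SE 0.18, edgeR with the block, adjusted p = 0.0617). Without the block the values were -0.38 and -0.39 with standard errors of 1.01 and 0.84, and the edgeR adjusted p-values were 0.913 and 0.887. The Dlx1 call was lost without any 1 of the 0 h libraries or without replicate 2 of 6 h, which had 34 counts, with an edgeR adjusted p of up to 0.106.

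Dlx1 shares 335 exonic bases with the antisense gene Dlx1as, and the strand setting of the counting is not given in the sources used here. Dlx1as had 99 to 141 counts at 0 h, 82 to 125 at 1 h and 121 to 159 at 6 h, above the 34 to 70 counts of Dlx1 in replicate 2. Its level in replicate 2, between 1.33 and 1.37 CPM, was close to that in the other replicates, between 1.14 and 1.95 CPM, and so did not follow the spread of Dlx1. At 1 h against 0 h the log2 values with the block were -0.26 for Dlx1 and -0.11 for Dlx2 (edgeR, adjusted p = 0.394 and 0.787), and at 6 h against 1 h they were -0.20 and -0.34 (adjusted p = 0.339 and 0.152).

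The 9 genes differed in how far their spread over the 9 libraries went with the replicate number or with time. Of the sum of squares of log2 CPM, 94.8% lay between replicate numbers for Dlx1 and 94.3% for Dlx2, and 3.14% and 4.42% between time points. Insm1 was the opposite case, with 5.52% between numbers and 86.2% between times. Hes6 had 41.7% and 54.1%. For Tcf4, Tcf3, Neurod1, Tcf12 and Neurog2 the share between numbers was 88.5%, 84.2%, 83.1%, 77.6% and 68.1%, beside a median of 48.9% over all tested genes, and the median share between times was 26.9%.

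**Figure D3:**
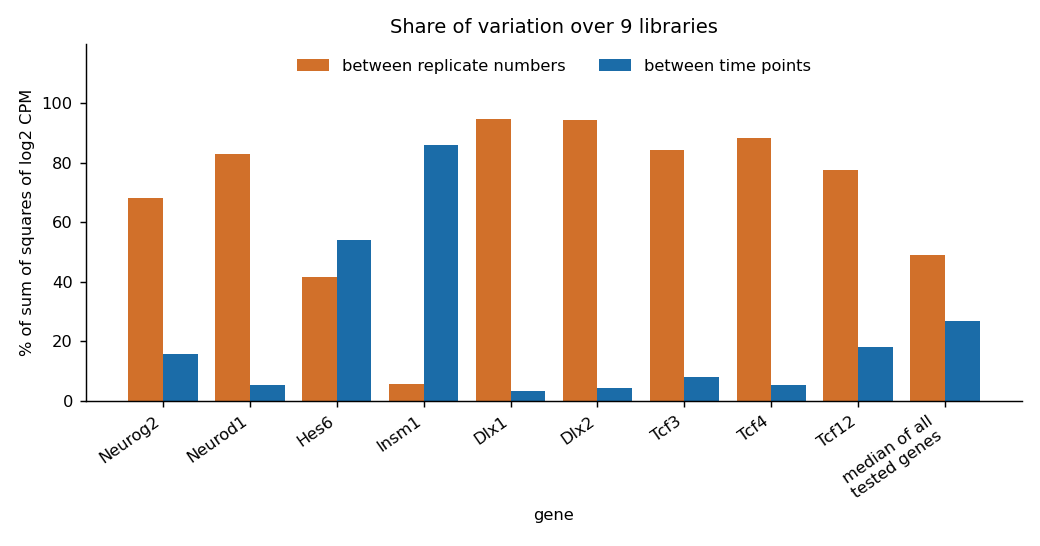
Share of the sum of squares of log2 CPM over 9 libraries that lies between replicate numbers (orange) and between time points (blue), for each gene and as the median of each share over all tested genes. The orange bar is the higher in 7 of 9 genes, and the blue bar is the higher for Hes6 and Insm1.

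Across the 9 libraries, which share replicate numbers and times, Dlx1 and Dlx2 had a Pearson correlation of log2 CPM of 0.92, and of 0.94 after the mean of each replicate number was subtracted. Tcf3 and Tcf4 ran opposite to each other, with -0.93 and -0.82. Hes6 and Dlx2 had -0.18 over the libraries as they were and -0.91 after the subtraction. These pairs were picked from all pairs of the 9 genes, and other pairs were as strong over the libraries as they were. Dlx2 and Tcf4 had -0.96 and Dlx1 and Tcf3 had 0.91, and after the subtraction they had -0.62 and 0.23. All these values are descriptions over 9 libraries, without a test.

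The inhibitors of bHLH factors were examined next to the members. Of 12 ID, HES and HEY genes 9 were tested, and at 1 h with the block 1 rose and 3 fell, beside 1.36% and 2.14% of all genes. Id1 rose by 0.33 (edgeR with the block, adjusted p = 0.0266), while Id3 fell by 0.54, Hes1 by 0.48 and Id2 by 0.43 (adjusted p = 0.00097, 0.0034 and 0.00049). Id3 had 86.2, 89.2 and 74.2 CPM at 0 h and 53.6, 70.5 and 48.7 CPM at 1 h, with no overlap. At 6 h it was back at 85.4, 96.2 and 86.9 CPM, and rose from 1 h by 0.65 (edgeR with the block, adjusted p = 2.2e-05).

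At 6 h against 0 h, 1 of the 9 rose and 3 fell with the block, beside 17.4% and 17.5% of all genes, and the median was 0.027. Id2 fell by 0.63, Hey1 by 0.47 and Hes1 by 0.39, and Hes5, a main Notch target in NSCs, rose by 0.68 (edgeR with the block, adjusted p = 1.8e-06, 0.00020, 0.0014 and 0.0060). Id2 had 35.3, 65.1 and 53.0 CPM at 0 h and 23.2, 43.7 and 32.7 CPM at 6 h, lower in 3 of 3 replicates with overlapping groups. Id1 was at 0.027, Id3 at 0.11 and Id4 at -0.10 (edgeR with the block, adjusted p = 0.812, 0.261 and 0.661). Without the block edgeR called 0 of the 9 in each comparison, beside 0.0424% (1 h against 0 h), 2.42% (6 h against 0 h) and 2.14% (6 h against 1 h) of all tested genes.

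From 1 h to 6 h, 2 of these 9 rose and 3 fell with the block, beside 18% and 17.5% of all genes. Hes5 rose by 0.88, Hey1 fell by 0.33, Id1 by 0.30 and Id2 by 0.20 (edgeR with the block, adjusted p = 0.0012, 0.0023, 0.0061 and 0.0089). Id4 and Hes1 were at -0.05 and 0.09 and did not pass.

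Genes that proneural factors activate in neurogenesis made a list of 18, of which 17 were tested. With the block 8 rose and 0 fell at 6 h against 0 h, beside 17.4% and 17.5% of all genes, with a median of 0.29 beside -0.000078 over all genes. The Notch ligand gene Dll3 rose by 0.98, the antiproliferative gene Btg2 by 0.84, Sox4 by 0.62 and Mfng, which encodes a glycosyltransferase that modifies Notch, by 0.52 (edgeR with the block, adjusted p = 8.4e-07, 1.2e-07, 1.8e-05 and 0.00047). Dll3, Btg2 and Sox4 passed without the block as well (edgeR, adjusted p = 0.0059, 0.0266 and 0.0191). Dll3 had 12, 10.8 and 11.9 CPM at 0 h and 22.4, 24.3 and 21.9 CPM at 6 h, with no overlap. Dcx and Stmn2 of the same list were at -0.35 and -0.77 and did not pass (edgeR with the block, adjusted p = 0.291 and 0.108), and 4 other neuronal genes, given with the cell markers, rose.

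At 1 h, 2 of the 17 rose and 1 fell, beside 1.36% and 2.14% of all genes: Sox4 by 0.57, Btg2 by 0.23, and Gadd45g, which fell by 0.26 (edgeR with the block, adjusted p = 0.00041, 0.0236 and 0.0460). From 1 h to 6 h 9 rose and 0 fell, beside 18% and 17.5% of all genes, led by Scrt1 with 0.91, Dll3 with 0.88, Btg2 with 0.62 and Gadd45g with 0.55 (edgeR with the block, adjusted p = 0.0213, 2.4e-06, 1.8e-06 and 4.0e-05). Scrt1 had only 10 to 83 counts per library, and without the block its edgeR adjusted p at 6 h against 1 h was 0.396. At 6 h against 0 h Scrt1 was at 0.62 and did not pass (edgeR with the block, adjusted p = 0.0922). The median of the 17 at 6 h against 1 h was 0.26, and at 1 h it was -0.0058.

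Of 18 other DLX and ventral forebrain interneuron genes, 10 were tested. Dlx5 and Dlx6 had 0 counts in all 9 libraries, and Dlx3 and Dlx4 at most 2. With the block 0 of the 10 passed at 1 h in edgeR, and 0 without it, beside 3.51% and 0.0424% of all tested genes. By 6 h 1 of the 10 rose and 1 fell with the block, beside 17.4% and 17.5% of all tested genes. Sp9, which encodes a zinc-finger factor of interneuron progenitors, rose by 0.44 and Meis2 fell by 0.15 (edgeR with the block, adjusted p = 0.0293 and 0.0487). From 1 h to 6 h 2 rose and 1 fell, beside 18% and 17.5%. Sp9 and Pax6 rose by 0.43 and 0.26 (edgeR with the block, adjusted p = 0.0343 and 0.0043). The medians were -0.0005 at 1 h, -0.097 at 6 h and -0.048 between 1 h and 6 h. Without the block 0 of the 10 passed in the 3 comparisons, beside 0.0424%, 2.42% and 2.14% of all tested genes.

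**Figure D4:**
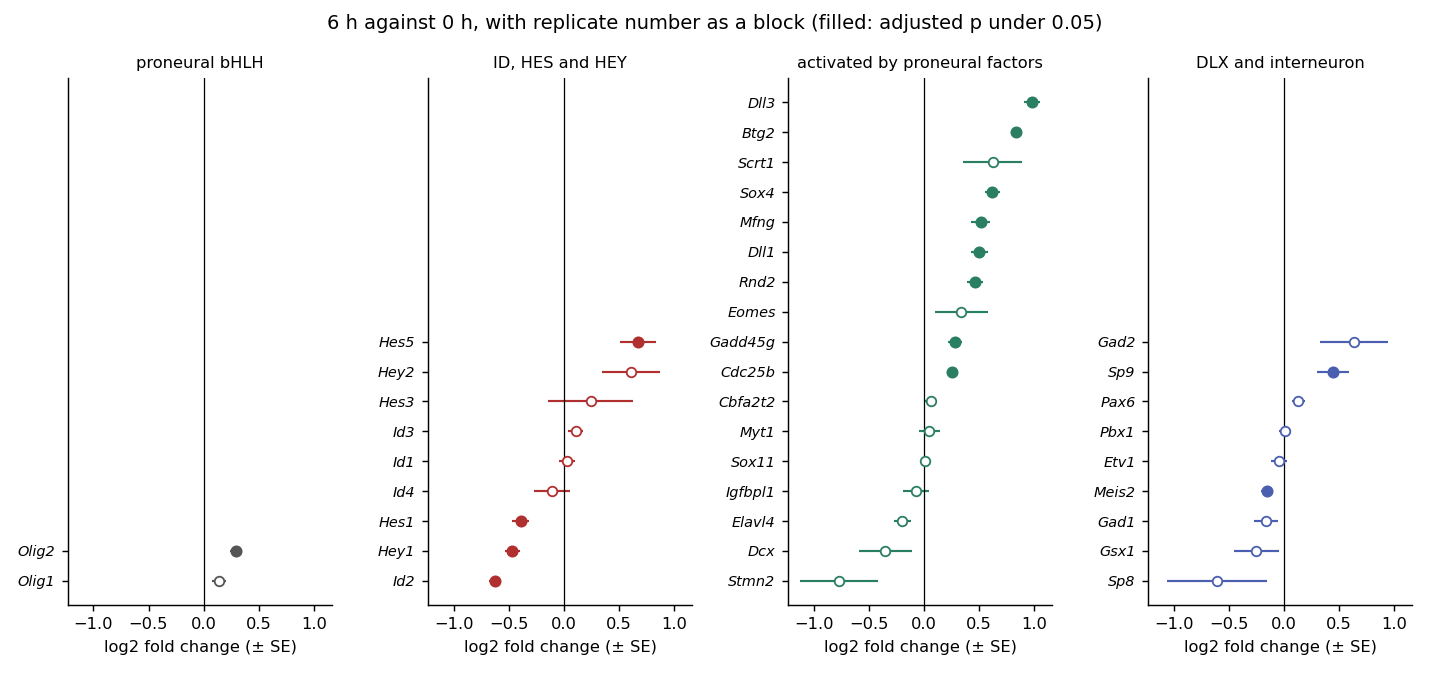
Log2 fold changes at 6 h against 0 h with standard errors (bars) for tested genes of the 4 related lists, from edgeR with a block for the replicate number, with filled points for an adjusted p under 0.05. All 8 filled points of the list activated by proneural factors lie above 0, while the ID, HES and HEY list holds 3 below 0 and 1 above.

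Single NSC markers moved in both directions at 6 h against 0 h. Nes and Vim fell by 0.43 and 0.28, and Slc1a3 and Egfr rose by 0.31 and 0.21 (edgeR with the block, adjusted p = 3.2e-05, 0.0015, 0.00028 and 0.0392). Sox2 and Fabp7 did not pass (adjusted p = 0.488 and 0.0834). Without the block 0 of the 6 passed, beside 2.42% of all genes. Markers of other cells moved over the same hours. The summed level of the 6 neuroblast and neuron markers was between 13.1 and 23.1 CPM at 0 h, 14.0 and 25.6 CPM at 1 h, and 21.7 and 42.1 CPM at 6 h. Of these 6, Rbfox3, Tubb3, Elavl3 and Snap25 rose at 6 h by 1.23, 1.06, 0.87 and 0.50 (edgeR with the block, adjusted p = 6.8e-05, 2.1e-06, 1.0e-06 and 0.0190), Elavl3 also without the block (0.0405), and Dcx and Stmn2 did not pass. That of the 6 oligodendrocyte-lineage markers was between 68.5 and 96.0, 76.7 and 92.2, and 170 and 216 CPM, with no overlap between 6 h and the other times. Most of that sum was Cspg4, with means of 65.9 CPM at 0 h and 174 CPM at 6 h, while Pdgfra went from 11.1 to 13.7 CPM and Mog from 0.313 to 0.300 CPM. Astrocyte markers were at 697 to 944, 719 to 1011 and 870 to 1084 CPM. Most of that sum was Aldoc, which rose by 0.31 at 6 h, while Gfap fell by 0.63 and the others did not pass (edgeR with the block, adjusted p = 0.0015 and 0.0282 for Aldoc and Gfap). Ependymal markers were at 46.5 to 87.4, 51.4 to 92.3 and 38.0 to 60.2 CPM. Most of that sum was Foxj1, which fell by 0.36 at 6 h, as did Ccdc153 by 0.68 (edgeR with the block, adjusted p = 0.0011 and 0.0077). Rsph1 and Dnah5 were at 0.32 and 0.48 and did not pass. Mural and mesenchymal markers, of which Dcn and Lum had a mean of at most 3 counts, were at 52.6 to 96.2, 64.1 to 110 and 33.3 to 46.8 CPM. Most of the last sum was Acta2, with means of 77.2 CPM at 0 h and 36.6 CPM at 6 h, while Pdgfrb went from 0.165 to 2.12 CPM, a log2 fold change of 3.68 (edgeR with the block, adjusted p = 2.3e-07, and 0.175 without it). Rgs5 of the same list fell by 0.77 at 6 h (edgeR with the block, adjusted p = 0.0043). Microglial markers stayed under 0.53 CPM and endothelial markers between 1.97 and 5.27 CPM. At these low levels Kdr, Tek and Csf1r fell by 0.72, 0.83 and 1.28 at 6 h (edgeR with the block, adjusted p = 0.00068, 0.0188 and 0.0397). Pecam1 did not pass (adjusted p = 0.577), and Csf1r had only 3 to 20 counts per library. The part of these cells in the changes of Hes6, Neurog2, Dlx1 and Olig2 was not tested.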

How the data were processed

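NSC cultures were profiled by mRNA sequencing. Per the submitters' processing notes, STAR 2.5.3a, FastQC and DESeq2 1.22.1 were used with mm10 (GRCm38). The authors deposited raw counts of reads per Ensembl gene, without normalisation. Symbols and exons came from GENCODE M21, which held 48144 of 48526 identifiers, and promoter sequences from RefSeq (GRCm38.p6).

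Counts were analysed with edgeR 4.0.16 (R 4.3.3): filterByExpr (minimum count 10, minimum total 15), TMM scaling, all 9 libraries fitted together with time point as the only factor, the quasi-likelihood test (glmQLFit, glmQLFTest) and Benjamini-Hochberg adjustment over 18858 genes at 0.05. The study used DESeq2 with a Wald test and names no covariate, so time point was the only factor here too. Other fits used the replicate number as a block, DESeq2 1.42.0, RLE scaling, other filters, only the 6 libraries compared, a threshold of 0.01, and left out each library. Log2 CPM used a prior count of 2. Standard errors came from the F statistic. Neurog2 and Neurod1 count ratios have exact 95% intervals, and a count of 0 allows 3. Tables and figures were made with Python 3.11.15, pandas 2.3.3, numpy 2.4.6, scipy 1.17.1 and matplotlib 3.10.9. The fits were tested on simulated data.

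Replicate numbers come from the labels. After subtraction of time means, libraries with the same number correlated at 0.733 to 0.800 in 9 pairs, so the numbers pair the libraries. Others correlated at -0.462 to -0.314 in 18 pairs. Given the positive values, the subtraction makes these negative, so they add no evidence of pairing. Because of the pairing, values with the block are printed beside those without.

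Named were all 9 members, from each of 4 lists up to 4 genes per comparison past the threshold with the largest change in the fit with the block, Id1 to Id4, Hes1 and Hes5, and per member the 2 genes most like it (mean CPM of 5 or more). Some items of the lists are not reported here. Olig1, Dlx3 to Dlx6, Dcx, Stmn2 and single cell markers, and the overlapping genes Cerkl and Dlx1as, were named after their values were seen. The members and lists were chosen with earlier results of these data known.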

Additional observations from a re-analysis of the deposited data

How the results depend on the processing

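Depth limits Neurog2 most, with at most 27 counts in a library, then Neurod1 and Dlx2. With 3 libraries per time point, the spread between replicate numbers sets the error without the block. All genes called at 1 h against 0 h numbered 8 without the block, 661 with it, 99 in DESeq2, 937 in DESeq2 with the block, 605 with RLE scaling and the block, 4 with only the 6 libraries compared, 2 at an adjusted p under 0.01, 240 at 0.01 with the block, 1 to 7 leaving out 1 library and 213 to 886 doing so with the block. For 6 h against 0 h these were 456, 6581, 1747, 6104, 6595, 113, 49, 4270, 39 to 508 and 4350 to 8051, and 205 with no filter. For 6 h against 1 h they were 404, 6710, 1688, 6263, 6790, 21, 26, 4246, 30 to 199 and 5148 to 6657, and 220 with no filter. Members called at 1 h were 0 without the block, 1 with it, 1 in DESeq2, 1 in DESeq2 with the block, 1 with RLE scaling and the block, and 1 to 2 leaving out 1 library with the block. For 6 h against 0 h they were, Neurog2 included, 3 with the block, 2 in DESeq2 with the block, 3 with RLE scaling and the block, and 1 to 4 leaving out 1 library with the block. For 6 h against 1 h they were 3 with the block, 1 in DESeq2, 3 in DESeq2 with the block and 3 with RLE scaling and the block, and 3 in each fit that left out 1 library with the block. Without replicate 1 of 0 h, 1 member was called with the block at 6 h against 0 h. The cause of these differences was not tested.

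The members' log2 fold changes of the edgeR fit without the block were set against those of other fits, some of which had the block. Of these values, 415 kept direction and side of the threshold, 22 passed it newly and 33 turned direction. Without a block only DESeq2 passed it newly, for Insm1 at 1 h and at 6 h against 1 h. The other new passes came from fits with the block. Set against the edgeR fit with the block, the numbers were 280, 3 and 3, and 7 lost the call. Every turn came from leaving out 1 library. The ranges without the block were -0.98 to 0.36, -1.13 to 0.25 and -0.85 to 0.62 for Dlx1 (1 h against 0 h, 6 h against 0 h, 6 h against 1 h), -1.04 to 0.70, -1.34 to 0.39 and -1.26 to 0.66 for Dlx2, and -0.44 to 0.72, -0.78 to 0.33 and -0.82 to 0.078 for Neurod1. They were -0.15 to 0.25, -0.00098 to 0.33 and -0.11 to 0.29 for Tcf4, -0.082 to 0.13 and -0.20 to 0.0042 for Tcf3 (1 h and 6 h against 0 h), -0.24 to 0.046 for Tcf12 (6 h against 0 h), -0.15 to 0.35 for Hes6 (1 h against 0 h) and -0.48 to 1.64 for Neurog2 (6 h against 1 h). With the block they were -0.15 to 0.27 for Neurod1 and -0.0083 to 0.14 for Tcf4 at 1 h against 0 h. For 12 more values set against the edgeR fits, DESeq2 gave the adjusted p as NA, and they were left out. Values from DESeq2 with the block were set against both edgeR fits and are counted for each.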

Other observations

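The genes whose log2 CPM over the 9 libraries was most like that of each member were sought among genes with a mean of at least 5 CPM. The libraries share replicate numbers and times, the values are the highest of many, and no test was made. As measured, the highest Pearson correlations were those of Slc25a13 and Uhrf1 with Dlx1 (0.995 and 0.995), Arpc1b and Pak1 with Dlx2 (0.986 and 0.984), Gabbr1 and Dclk2 with Tcf4 (0.996 and 0.984), Nr2f6 and Strn4 with Tcf3 (0.987 and 0.986), and Cd47 and Bmpr1b with Tcf12 (0.967 and 0.964). Those with Hes6 were Vars2 and Gpc1 (0.986 and 0.986), with Insm1 Dclre1a and Phf13 (0.951 and 0.930), with Neurod1 Gm2962 and Gm15920 (0.973 and 0.968), and with Neurog2 Mef2d and Tiam1 (0.956 and 0.936).

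After the mean of each replicate number was subtracted, other genes were the most like each member. They were Aacs and Lipa for Hes6 (0.998 and 0.997), Trim59 and Gmip for Insm1 (0.978 and 0.977), Eme1 and Cdc6 for Dlx1 (0.989 and 0.988), Nat10 and Tsr2 for Dlx2 (0.996 and 0.989), and Sema5b and Cntnap4 for Tcf12 (0.975 and 0.973). For Tcf4 they were Nktr and Sesn3 (0.980 and 0.977), for Tcf3 Ssbp4 and Egln1 (0.969 and 0.963), for Neurod1 Bcs1l and Bex4 (0.976 and 0.976), and for Neurog2 Mvb12b and Tapt1 (0.938 and 0.926).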
